A study of Mus musculus with 48 samples.

Results

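Cells labelled as macrophages were compared with whole epididymal white adipose tissue (eWAT), the visceral fat pad beside the mouse epididymis. The libraries were taken by their sample labels: the 6 libraries labelled as eWAT macrophages (F4/80+, CD11b+ and CD64+) and the 7 labelled as eWAT, all from mice labelled wild type (WT) and fed a control diet. They make up 13 of the 48 mRNA sequencing libraries of the series, which also covers mice labelled as adipose-specific Txnip knockout and a ketogenic diet. On the same diet, 13 libraries labelled knockout (6 macrophage-labelled and 7 eWAT) gave the same comparison without sharing a library. The labels give no age or strain, and do not say that each library came from a different animal, so p-values measure the spread between libraries, which may be technical. Both kinds of RNA were extracted with TRIzol and a column kit. The eWAT libraries were then made from 500 ng of RNA with a stranded mRNA kit, and the macrophage-labelled libraries from 1 to 5 ng with SMART-Seq v4, a whole-transcript amplification kit that marks no strand. Tissue therefore coincides with library kit, and their effects cannot be told apart in any result below.

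Macrophages of adipose tissue take up dying cells and lipid, and are sorted by the surface proteins F4/80 (encoded by Adgre1), CD11b (Itgam) and CD64 (Fcgr1). Endothelial cells line the vessels of the same tissue and carry PECAM-1 and the VEGF receptor encoded by Kdr. Immediate early genes such as Egr1 and Fos encode transcription factors and regulators that are switched on within minutes of a growth factor, stress or mechanical stimulus without new protein synthesis, and enzymatic dissociation of a tissue is a known stimulus.

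Transcripts of the 3 sort marker genes were lower in the macrophage-labelled libraries than in whole eWAT. The label names surface proteins, whereas these counts measure RNA, and tissue coincides with kit. Adgre1 (ENSMUSG00000004730, GRCm38 chromosome 17, 57358691 to 57483527) ranged from 10.7 through a median of 24.5 to 65.5 CPM (counts scaled to a common library total and normalized by the trimmed mean of M-values, TMM) in the macrophage-labelled libraries, and from 65.2 through 79.0 to 94.5 CPM in whole eWAT. Only replicate 4 of the macrophage-labelled libraries reached the eWAT range. The log2 fold change of macrophage-labelled over eWAT was -1.47 ± 0.32 (SE, n = 6 and 7, edgeR adjusted p = 0.00061). Itgam (chromosome 7, 128062640 to 128118491), an integrin subunit of myeloid cells, ranged from 2.26 through 4.20 to 16.4 CPM against 15.2 through 19.7 to 28.7 CPM in eWAT. Again replicate 4 alone overlapped the eWAT libraries, and the change was -1.72 ± 0.38 (adjusted p = 0.00056). Fcgr1 (chromosome 3, 96282909 to 96293969), the high-affinity IgG receptor, lay between 1.09 and 2.08 CPM (median 1.46) against 3.87 to 16.6 CPM in eWAT (median 4.99). The groups did not overlap for Fcgr1, with a change of -2.17 ± 0.33 (adjusted p = 2.1e-05). Without macrophage-labelled replicate 4 the changes of the 3 sort markers were -1.89, -2.28 and -2.29 in the order given, and without eWAT replicate 4, the highest for Fcgr1, they were -1.40, -1.59 and -1.71. All stayed past the test. The libraries are therefore called macrophage-labelled here, and no cell type name is given to them.

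The macrophage-labelled libraries held 36.9 to 47.3 M gene counts each and the eWAT libraries 33.8 to 58.2 M, with 16910 to 17370 and 16625 to 18572 genes at 10 counts or more. Unmapped reads made up 9.73 to 17.1% of reads in the macrophage-labelled libraries, most in replicate 2, and 4.36 to 5.40% in eWAT. Of 17663 genes tested, 7255 were higher (41.1%) and 7254 lower (41.1%) in the macrophage-labelled libraries at an adjusted p under 0.05. With a fold of at least 4 as well, 1868 (10.6%) were higher and 2452 (13.9%) lower. All macrophage-labelled libraries lay above all eWAT libraries for 32.5% of genes and below for 32.4%. The median log2 fold change over all genes was -0.01. Every list below is to be read against these shares, and its counts and medians are descriptions with no test of the list. In these bulk libraries fewer cells of a type and less RNA per cell cannot be told apart.

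**Figure D1:**
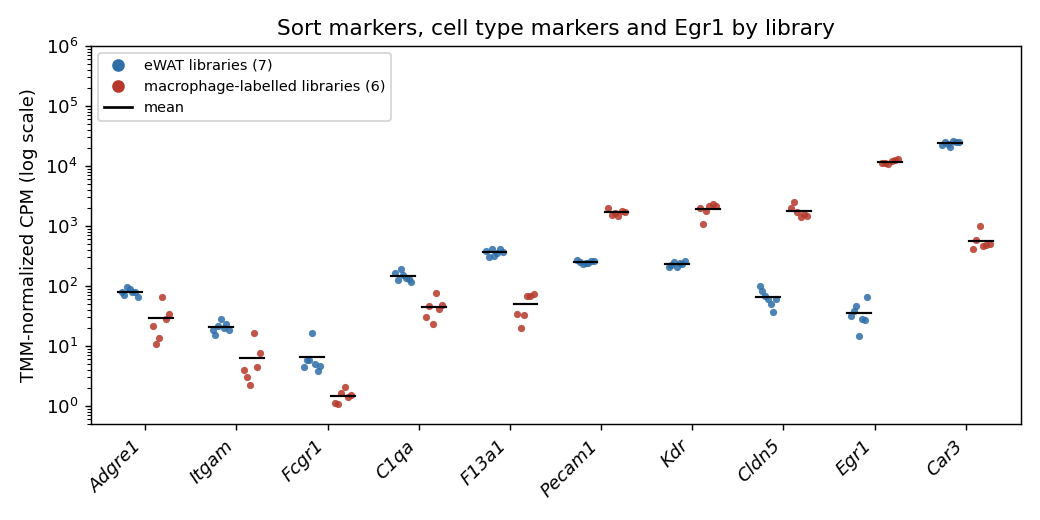
TMM-normalized CPM (log axis) of 10 genes in each of the 7 eWAT (blue) and 6 macrophage-labelled (red) wild-type control-diet libraries, with black bars for group means. The 3 sort markers and the macrophage genes C1qa and F13a1 had lower means in the macrophage-labelled libraries, Pecam1, Kdr, Cldn5 and Egr1 lay above every eWAT library, and the adipocyte gene Car3 lay below.

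Endothelial genes were the cell type list with the highest median, and 17 of its 18 members were higher in the macrophage-labelled libraries, 13 of them at least 4-fold, with a median log2 fold change of 2.94. All 17 lay above every eWAT library. Pecam1 (ENSMUSG00000020717, chromosome 11, 106654217 to 106750628), an adhesion protein of endothelial junctions that some blood cells also carry, ranged from 1482 through 1707 to 1965 CPM against 234 through 254 to 267 CPM in eWAT. The macrophage-labelled libraries lay well apart from eWAT (2.75 ± 0.08, adjusted p = 7.1e-14). Kdr (ENSMUSG00000062960, chromosome 5, 75932827 to 75978458), the main receptor for VEGF-A, ranged from 1088 through 2069 to 2280 CPM against 206 through 231 to 258 CPM. Replicate 2 was the low library, and still exceeded every eWAT library (3.04 ± 0.15, adjusted p = 2.6e-11).

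The largest endothelial changes were in Sox17 (4.98 ± 0.20) and Sox18 (4.69 ± 0.29), transcription factors of vessel development, and in Cldn5 (4.76 ± 0.23), the tight junction claudin. Cldn5 averaged 1776 ± 403 CPM (SD, n = 6) in the macrophage-labelled libraries and 65.5 ± 21.0 CPM (n = 7) in eWAT. Receptors and junction proteins followed, among them Esam (3.99 ± 0.09), Tie1 (3.63 ± 0.09), Robo4 (3.16 ± 0.08), Eng (2.80 ± 0.11) and Tek, the angiopoietin receptor (2.51 ± 0.13). Plvap, which forms the diaphragms of fenestrae, rose by 3.89 ± 0.24, Egfl7, a secreted endothelial factor, by 3.45 ± 0.13 and Emcn, a sialomucin, by 2.84 ± 0.06. Members that differed less were Flt1, another VEGF receptor (1.72 ± 0.07), Cdh5, encoding VE-cadherin (1.26 ± 0.08), Vwf, the clotting factor carrier (1.14 ± 0.17), and the phosphatase Ptprb (0.75 ± 0.08). Erg, an ETS factor of endothelial identity, was the exception, with 40.2 ± 6.81 CPM in macrophage-labelled and 39.8 ± 3.65 CPM in eWAT libraries (0.02 ± 0.10, adjusted p = 0.89). An offset for GC content and exon length moved the fold of 7 of the 18 members by more than 1.5 times. It ended none of the 17 calls.

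Per kb of exon length, the summed endothelial level was 2.49 to 8.45 times the summed pan-macrophage level in the macrophage-labelled libraries (median 6.79), with replicate 4 the lowest. In eWAT it was 0.279 to 0.424 times that level (median 0.363). Adgre1 counts amounted to 0.689 to 4.42% of Pecam1 counts in the macrophage-labelled libraries and 24.8 to 40.4% in eWAT. Taken as the mean per member, the fibroblast and progenitor level was 5.92 to 9.86 times the pan-macrophage level in the macrophage-labelled libraries (median 7.57). In eWAT it was 4.10 to 6.94 times that level (median 5.36). The mural cell level was 1.04 to 3.05 times the pan-macrophage level (median 2.33), and 0.267 to 0.422 times in eWAT (median 0.359). All these ratios are taken within a library and do not rest on scaling between libraries.

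Macrophage genes beyond the sort markers were mostly lower or not called. Of 18 pan-macrophage genes 11 were lower, 2 higher and 5 not called (median -0.66), and their summed level ranged from 766 to 1996 CPM against 1622 to 2110 CPM in eWAT. C1qa and C1qb, subunits of complement C1q, differed by -1.71 ± 0.22 and -1.01 ± 0.19. The change in C1qa was -2.36 with the offset for GC content and length. Cd14, a lipopolysaccharide co-receptor, was among the higher members (0.62 ± 0.21), and with no filter on low counts it was not called (adjusted p = 0.050). Resident macrophage genes had 12 of 14 members lower and none higher (median -2.63). Among them F13a1, a transglutaminase subunit, lay between 19.7 and 73.7 CPM (median 50.6) against 305 to 418 CPM in eWAT (median 373). The groups stood apart, with a change of -2.90 ± 0.27. Pf4, a CXC chemokine, was lower by less (-0.79 ± 0.16) and its ranges overlapped. Folr2 showed the largest change of the list (-5.11 ± 0.25), and the eWAT strand column held 4.74 times its unstranded eWAT counts, which made it -7.33 there.

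Lipid-associated macrophage genes had 3 of 12 members higher and none lower (median 0.26). They were the tetraspanin Cd9 (2.07 ± 0.11), the lipid-binding protein gene Fabp5 (1.51 ± 0.24) and Gpnmb (1.91 ± 0.53, and 2.49 without eWAT replicate 4), while Trem2, the receptor that marks these macrophages, was at -0.46 ± 0.38 and not called (0.08 without eWAT replicate 4). Monocyte genes had 3 of 8 higher and 1 lower (median 0.44): Treml4 (2.82 ± 0.34), Ly6c2 (1.44 ± 0.29) and Ace (0.77 ± 0.13), the last also made by endothelium, against the chemokine receptor Ccr2 (-2.98 ± 0.13). Antigen presentation genes of MHC class II had 6 of 9 lower and none higher (median -0.81), with H2-Aa at -1.66 ± 0.14, H2-Eb1 at -1.26 ± 0.16 and the invariant chain gene Cd74 at -0.58 ± 0.12. H2-Aa lay between 83.8 and 146 CPM against 312 to 406 CPM in eWAT, with no overlap. Dendritic cell genes had 6 of 9 lower and 2 higher (median -1.01). The higher ones were Ccr7, a homing receptor (2.13 ± 0.35), and Zbtb46 (2.62 ± 0.10), a transcription factor that endothelial cells also express. The lectin gene Mgl2 fell by 2.42 ± 0.12 (SE).

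**Figure D2:**
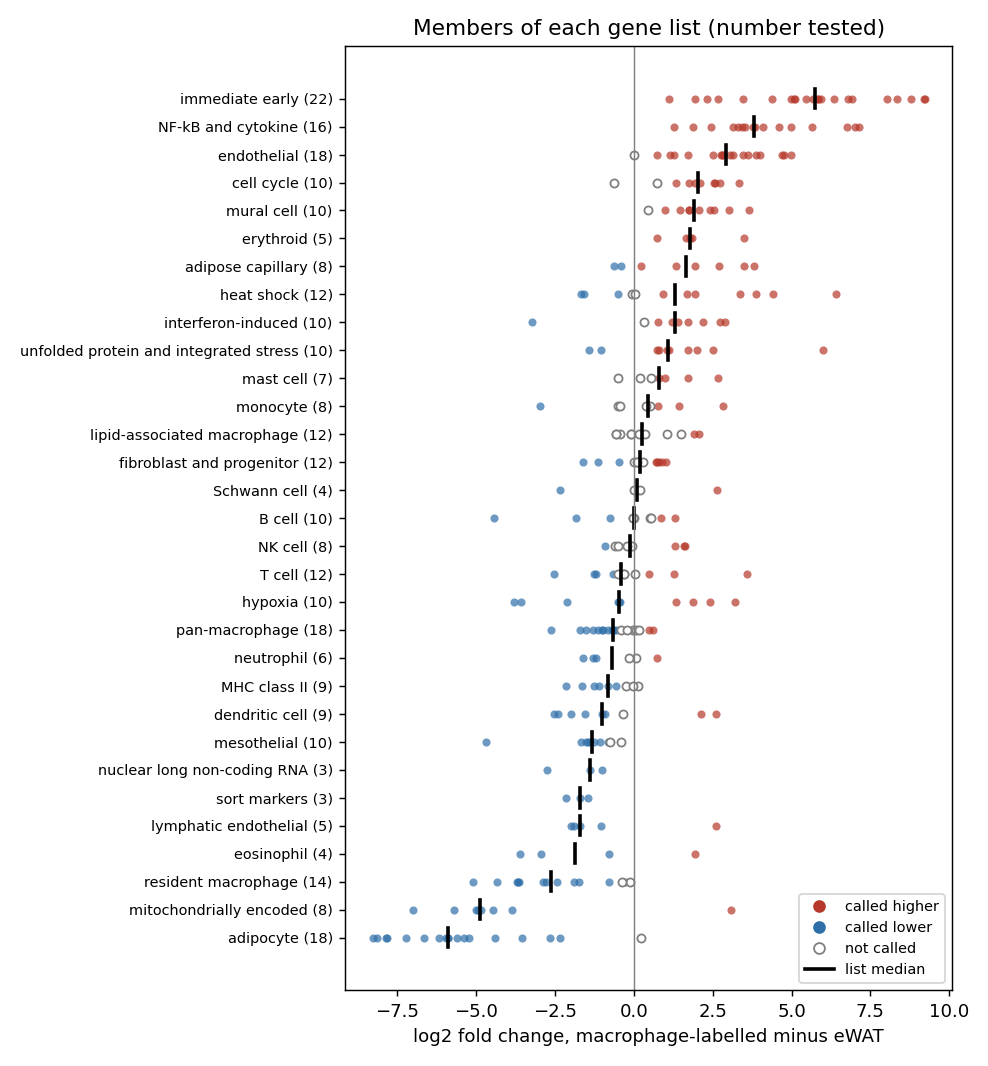
Log2 fold changes of macrophage-labelled minus eWAT libraries (horizontal axis) for the tested members of 31 gene lists, ordered by list median (black bar), with red for called higher, blue for called lower and open circles for not called. Immediate early, NF-kB and cytokine, and endothelial genes had the highest medians (5.76, 3.80 and 2.94), and adipocyte and mitochondrially encoded genes the lowest (-5.91 and -4.89).

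Other blood cell genes differed in both directions and were mostly low. B cell genes had 2 of 10 higher and 3 lower (median -0.01), with the immunoglobulin M heavy chain gene Ighm at 215 ± 96.2 CPM against 763 ± 239 CPM in eWAT (-1.83 ± 0.28). Cd79a, a signalling chain of the B cell receptor, was among the higher members (1.30 ± 0.38). T cell genes had 3 of 12 higher and 5 lower (median -0.41). Cd247, the zeta chain of the T cell receptor complex, stood out at 88.5 ± 12.5 CPM against 7.32 ± 1.36 CPM (3.59 ± 0.13), while the receptor constant region Trac was at 3.16 ± 0.653 CPM against 1.31 ± 0.266 CPM (1.27 ± 0.18) and Cd3e at 1.01 CPM against 1.25 CPM was not called. The kinase gene Lck was the other higher member (0.49 ± 0.21). The 5 lower members were Thy1 (-2.52 ± 0.36, with no overlap), Cd4 (-1.26 ± 0.38), Cd8a (-1.20 ± 0.40), Cd3g (-0.65 ± 0.27) and Cd2 (-0.51 ± 0.20). Only Cd2 of these was examined under the alternative settings, where 3 settings and the loss of any of 5 libraries ended its call. NK cell genes had 3 of 8 higher and 1 lower (median -0.13). The granule genes Gzma (1.60 ± 0.25), Prf1 (1.63 ± 0.32) and Nkg7 (1.29 ± 0.30) were higher and the receptor gene Klra8 (-0.92 ± 0.35) lower, all under 4 CPM on average. In the libraries labelled knockout NK cell genes had 1 member higher and 4 lower (median -0.73). Gzma (0.34 ± 0.28) and Nkg7 (0.63 ± 0.34) were not called there. T cell genes had 2 members higher and 8 lower in that comparison (median -1.20).

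Neutrophil genes had 6 of 9 members tested, of which S100a8 (-1.30 ± 0.37), Retnlg (-1.22 ± 0.34) and the gelatinase Mmp9 (-1.63 ± 0.28) were lower and S100a9 (0.74 ± 0.32) higher (median -0.69). The loss of any of 8, 5 and 8 libraries ended the calls of Lck, Klra8 and S100a9, and so did some alternative settings, with adjusted p up to 0.43 (Lck with the offset for GC content and length). Mast cell genes had 4 of 7 higher and none lower (median 0.80). Kit, the stem cell factor receptor, was the largest (2.67 ± 0.15) and averaged 122 CPM of a mean list sum of 192 CPM. Cpa3, Mcpt4 and Cma1 were not called. In the libraries labelled knockout the list had 2 members higher and 1 lower (median 0.06). Tpsb2, a tryptase, was called at 0.99 ± 0.33, but replicate 4 held 58.7 CPM against 11.3 to 17.2 CPM in the other 5 macrophage-labelled libraries, and without it the change was 0.39 (adjusted p = 0.020). The Tpsb2 call ended without the low-count filter and with the offset for GC content and length (adjusted p = 0.054 and 0.16). Eosinophil genes had 4 of 5 members tested, with Siglecf (-2.94 ± 0.48), Ccr3 (-3.60 ± 0.38) and Il5ra (-0.78 ± 0.31, a call that 3 settings and the loss of any of 4 libraries ended) lower and Prg2 (1.93 ± 0.34) higher (median -1.86). The eosinophil peroxidase gene Epx was at 0 counts in all 6 macrophage-labelled libraries, where 3 counts, the limit that a count of 0 allows, equal 0.0635 to 0.0812 CPM. Such limits cover counting error only. In eWAT Epx was near 0 as well, averaging 0.0075 CPM with at most 0.0268 CPM, and it was not tested. Globin and heme synthesis genes of red cells had 5 of 5 higher (median 1.77), with Hbb-bs at 1132 to 2475 CPM against 297 to 728 CPM in eWAT (1.77 ± 0.24) and Hba-a1 at 3.50 ± 0.44. The globin genes have near-identical copies, so the split of reads between them is uncertain.

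Mural cell and capillary genes were mostly higher, and lymphatic genes mostly lower. Mural cell genes, which mark pericytes and vascular smooth muscle, had 9 of 10 higher and none lower (median 1.90). Kcnj8, a potassium channel subunit of pericytes, rose by 3.66 ± 0.07, Pdgfrb, the pericyte receptor for PDGF-B, by 3.02 ± 0.12 and Rgs5 by 1.45 ± 0.11. Pdgfrb ranged from 420.0 to 735 CPM against 72.9 to 82.7 CPM, so the groups did not overlap. The member not called was Tagln, whose eWAT strand column held 76.4 times its unstranded counts and whose unstranded value is therefore not interpretable. Adipose capillary genes had 6 of 8 higher and 2 lower (median 1.64). The water channel Aqp1 was at 2069 to 3794 CPM against 429 to 517 CPM (2.71 ± 0.12). Cd36 and Fabp4, which take up and carry fatty acids in capillaries, adipocytes and macrophages alike, were at 6963 ± 877 and 8715 ± 2034 CPM against 5969 ± 337 and 11545 ± 836 CPM. Their calls were weak: Cd36 (0.22 ± 0.10, adjusted p = 0.042) lost its call under DESeq2 size factors (adjusted p = 0.095) and when any of 10 libraries was left out, and Fabp4 (-0.41 ± 0.13) lost it with the offset for GC content and length (adjusted p = 0.15). Lymphatic endothelial genes had 5 of 6 members tested, 4 lower and 1 higher (median -1.72). Flt4, a VEGF receptor that blood capillaries can also express, was the higher one (2.60 ± 0.13). Prox1, the factor that defines lymphatic identity, was at 0.238 CPM against 0.883 CPM (-1.89 ± 0.50, or -1.23 with limma-voom), and Pdpn (-1.03 ± 0.21), Mmrn1 (-1.98 ± 0.62) and Reln (-1.72 ± 0.61) were lower too. Mmrn1 fell by only 1.05 without eWAT replicate 2, and its call ended under limma-voom (adjusted p = 0.066). Reln was not called without that library (-1.05, adjusted p = 0.057), with limma-voom (-1.10, adjusted p = 0.12) or with the offset for GC content and length (-0.83, adjusted p = 0.20). Ccl21a was at 0 counts in all 13 libraries.

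Fibroblast and progenitor genes went both ways, with 5 of 12 higher and 3 lower (median 0.19). Collagen gene Col3a1 (0.73 ± 0.15) and the proteoglycan gene Dcn (0.81 ± 0.15) were higher. Dpp4 was lower (-1.15 ± 0.36, adjusted p = 0.0087) with overlapping ranges, and the lowest change of the list was -1.62. The actin-severing protein gene Gsn was lower by less (-0.48 ± 0.21, adjusted p = 0.047), a call that 5 of the alternative settings and the loss of any of 8 libraries ended. Dpp4 was not examined under those settings. Mesothelial genes had 8 of 10 lower and none higher (median -1.32), among them the uroplakin genes Upk1b (-1.45 ± 0.42) and Upk3b (-1.26 ± 0.45), with overlapping ranges. With no filter on low counts Upk3b was not called (adjusted p = 0.056). Adipocyte genes had 17 of 18 lower, all 17 at least 4-fold and below every eWAT library (median -5.91). Scd1, which desaturates stearoyl-CoA, was at 133 to 371 CPM against 24849 to 37721 CPM in eWAT (-6.67 ± 0.26), the carbonic anhydrase gene Car3 at 408 to 1011 CPM against 20356 to 26355 CPM (-5.38 ± 0.22), and Cfd, encoding adipsin, at 75.4 to 117 CPM against 3000 to 7149 CPM (-5.91 ± 0.22). The exception was Pparg, the adipocyte master regulator, which endothelial cells and macrophages also express (0.23 ± 0.16, not called). Schwann cell genes had 4 of 5 members tested, with Mbp lower (-2.35 ± 0.11) and Sox10 higher at 1.00 CPM against 0.152 CPM (2.63 ± 0.41, or 1.54 with the offset; list median 0.09). Of 4 genes of the epididymal epithelium none passed the low-count filter, and Lcn5, Lcn8 and Adam7 were at 0 counts in the macrophage-labelled libraries. In eWAT the 4 genes summed to 0 CPM in the median library and to at most 1.95 CPM.

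All 22 immediate early genes were higher in the macrophage-labelled libraries, 20 of them at least 4-fold, with a median log2 fold change of 5.76. For 21 of the 22 every macrophage-labelled library lay above every eWAT library. Together they took 5.02 to 5.78% of all gene counts in the macrophage-labelled libraries and 0.0628 to 0.0934% in eWAT. Per kb of exon length, Fos, Egr1, Junb and Ier2 were among the 10 most abundant genes of the macrophage-labelled libraries, in ranks 2, 3, 5 and 10. A few members carry promoter elements through which serum response factor (the CArG box) and CREB (the CRE) are known to act, and these are shown here with the heat shock element, through which heat shock factor acts. The 250 bases before annotated starts were searched on both strands in RefSeq promoters of GRCm38.p6, which held 18 of the 22 immediate early and 9 of the 12 heat shock genes. Below are the matches in immediate early genes and in Hspe1, with 10 bases on either side and the motif in capitals.
Egr2, CArG box, chr10:67537484-67537513, plus strand: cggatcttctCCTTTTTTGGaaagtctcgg
Egr2 from a further start, CArG box, chr10:67537787-67537816, plus strand: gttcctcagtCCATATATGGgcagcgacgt
Zfp36, CArG box, chr7:28379267-28379296, minus strand: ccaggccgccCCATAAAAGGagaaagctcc
Btg2, CRE, chr1:134079304-134079331, minus strand: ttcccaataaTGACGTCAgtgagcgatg
Dusp1, CRE, chr17:26508598-26508625, minus strand: gtagggcgggTGACGTCAccgcccggtc
Maff, CRE, chr15:79347481-79347508, plus strand: gctggggcggTGACGTCActgcatgact
Hspe1, 2 overlapping heat shock elements, chr1:55088049-55088086, plus strand: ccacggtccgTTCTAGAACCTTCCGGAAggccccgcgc
A CArG box was found in 2 of the 18 immediate early genes (11.1%) and in 1.62% of all 27025 genes of the table, and a CRE (TGACGTCA) in 3 of 18 (16.7%) and 1.77%. The heat shock element, searched as GAA, TTC and GAA each parted by any 2 bases, was found in 2 of the 9 heat shock genes (22.2%), Hspe1 and its neighbour Hspd1, and in 0.514% of all genes. A match describes letters in a window and not a bound site.

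Fos, Junb and Fosb, genes of the AP-1 factors, had the largest changes of the list. Fos (ENSMUSG00000021250, chromosome 12, 85473890 to 85477273) ranged from 7346 through 7959 to 8803 CPM in the macrophage-labelled libraries and from 6.22 through 13.4 to 20.9 CPM in eWAT. No library of either group came near the other (9.22 ± 0.29, adjusted p = 2.2e-13). Junb ranged from 5047 through 5279 to 7535 CPM, with replicate 2 on top, against 4.44 through 8.87 to 16.7 CPM (9.22 ± 0.35). Fosb followed (8.79 ± 0.18). The AP-1 genes Jun (5.83 ± 0.24) and Jund (4.39 ± 0.14) changed less, and Atf3, a partner of these factors that stress induces, rose by 6.92 ± 0.18. Among zinc finger factors Egr1 (ENSMUSG00000038418) ranged from 10720 through 11608 to 12901 CPM against 14.8 through 31.4 to 65.8 CPM. Its lowest macrophage-labelled library thus lay far above its highest eWAT library (8.34 ± 0.32, adjusted p = 2.0e-12). Egr2 (6.33 ± 0.19) and Egr3 (5.11 ± 0.19) were lower in level, at 342 ± 35.1 and 95.6 ± 18.5 CPM in the macrophage-labelled libraries.

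Ier2 was the most even member, from 2802 to 2876 CPM over the macrophage-labelled libraries against 5.30 to 16.6 CPM in eWAT (8.04 ± 0.25). Of the orphan nuclear receptors Nr4a1 (6.80 ± 0.35) and Nr4a2 (4.98 ± 0.12) rose strongly, while Nr4a3 had the smallest change of the list, from 3.13 ± 1.42 CPM in eWAT to 6.72 ± 1.15 CPM (1.10 ± 0.25, adjusted p = 0.00076), and was the member whose groups overlapped. Regulators that switch the response off were high as well. Zfp36, which destabilizes cytokine mRNAs, rose by 5.93 ± 0.14, Btg2, an antiproliferative factor, by 5.84 ± 0.11, Dusp1, a MAP kinase phosphatase, by 5.68 ± 0.17 and Ier3 by 5.48 ± 0.19. The Kruppel-like factors Klf2 (5.09 ± 0.17), Klf4 (2.66 ± 0.11) and Klf6 (1.95 ± 0.11) are also expressed in unstimulated endothelium. Myc rose by 3.45 ± 0.18 and Maff by 2.33 ± 0.13. The offset for GC content and length moved the fold of 7 members by more than 1.5 times, most in Jund (to 2.66), and left all 22 calls, with a list median of 5.38.

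**Figure D3:**
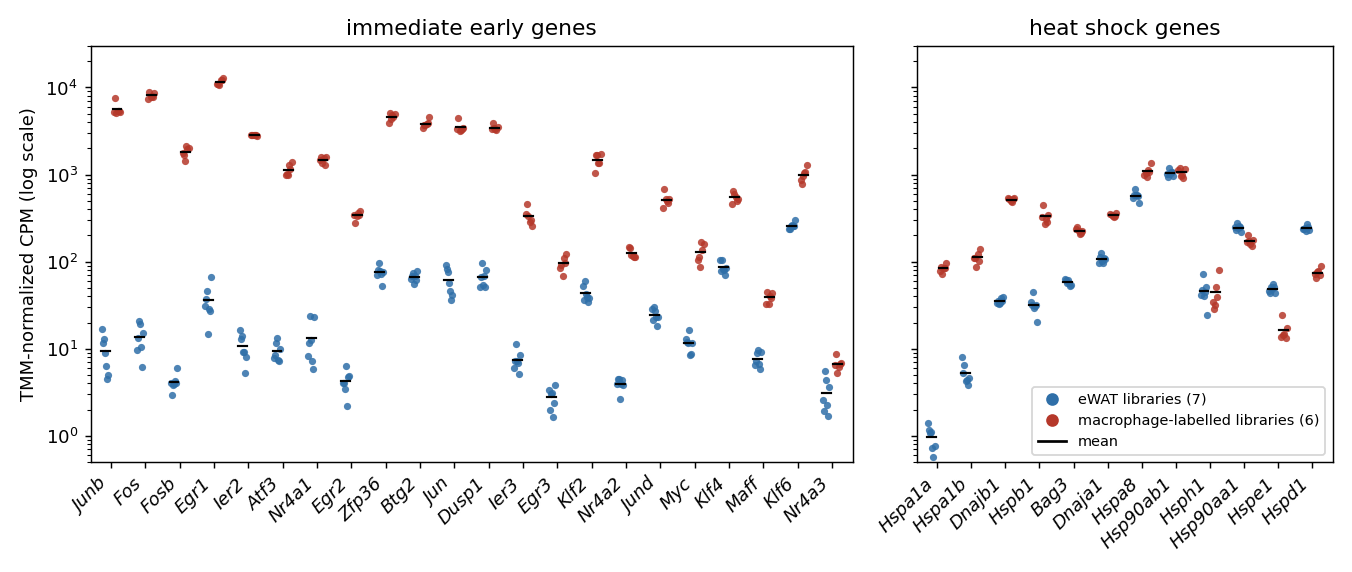
TMM-normalized CPM (log axis) of the 22 immediate early and 12 heat shock genes in each eWAT (blue, 7) and macrophage-labelled (red, 6) wild-type control-diet library, with black bars for group means. All immediate early genes but Nr4a3 were fully separated between the groups, and heat shock genes ran from Hspa1a, which was higher, to Hspd1 and Hspe1, which were lower.

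Heat shock genes were split. Of 12 members 7 were higher and 3 lower (median 1.30). The stress-inducible HSP70 genes changed most: Hspa1b was at 86.3 to 141 CPM against 3.81 to 8.02 CPM (4.41 ± 0.17), and Hspa1a at 72.5 to 95.9 CPM against 0.571 to 1.40 CPM (6.40 ± 0.16). Both were fully separated between groups. Hspa1a and Hspa1b are near-identical copies whose reads may be split, and with the eWAT strand column Hspa1a rose by 5.45. The co-chaperones Dnajb1 (3.87 ± 0.07), Bag3 (1.95 ± 0.07) and Dnaja1 (1.67 ± 0.07) were higher, as were the small heat shock protein gene Hspb1 (3.37 ± 0.16) and the constitutive HSP70 gene Hspa8 (0.93 ± 0.10). The mitochondrial chaperonins Hspd1 (-1.69 ± 0.08) and Hspe1 (-1.57 ± 0.13), which share the promoter printed above, were lower, and so was Hsp90aa1 (-0.52 ± 0.08). Hspd1 ranged from 64.2 to 89.1 CPM against 226 to 269 CPM, with no overlap. Hsp90ab1 (0.04 ± 0.09) and Hsph1 (-0.05 ± 0.25) were not called, and the sign of both changed with the scaling. With the offset for GC content and length Hspa1a was at 5.64, Hspa1b at 3.76 and Hspb1 at 2.44.

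The 16 NF-kB and cytokine genes were all higher, 14 of them at least 4-fold (median 3.80), with a summed level of 2518 to 3410 CPM against 122 to 157 CPM in eWAT. Socs3, a feedback inhibitor of cytokine receptors, ranged from 934 to 1335 CPM against 7.55 to 12.1 CPM (6.76 ± 0.13). Nfkbiz (4.98 ± 0.17) and the NF-kB inhibitor gene Nfkbia (3.54 ± 0.11) were fully separated too. Unfolded protein and integrated stress genes had 8 of 10 higher and 2 lower (median 1.07). Ppp1r15a, the stress-induced phosphatase subunit, rose most (6.0 ± 0.15), followed by Atf4 (2.52 ± 0.11) and the chaperone Hspa5 (1.11 ± 0.13), whereas Asns, an ATF4 target (-1.41 ± 0.07), and Chac1 (-1.04 ± 0.19) were lower. Interferon-induced genes had 8 of 10 higher and 1 lower (median 1.29), with Isg15 at 2.89 ± 0.18, Rsad2 at 2.74 ± 0.16 and Irf7 at 1.72 ± 0.14, against Mx1 at -3.22 ± 0.29. Hypoxia genes had 4 of 10 higher and 6 lower (median -0.46). Adm, a vasodilator peptide gene (3.20 ± 0.16), Ankrd37 (2.41 ± 0.17), the glucose transporter Slc2a1 (1.87 ± 0.10) and Ndrg1 (1.34 ± 0.08) were higher, while Vegfa (-3.82 ± 0.14), Bnip3 (-3.57 ± 0.10, or -4.73 with the eWAT strand column) and Ldha (-0.46 ± 0.10) were lower.

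Genes encoded by the mitochondrial genome took 0.153 to 0.330% of gene counts in the macrophage-labelled libraries and 4.71 to 5.87% in eWAT. Of 13 such genes 8 were tested, 7 were lower and 1 higher (median -4.89). The oxidase subunit mt-Co1 was at 462 to 986 CPM against 15602 to 20487 CPM (-4.94 ± 0.19), mt-Cytb at -4.46 ± 0.19 and mt-Nd1 at -3.87 ± 0.19, and mt-Nd3 was the higher one (5.40 CPM against 0.627 CPM, 3.09 ± 0.24, or 3.70 with the offset for GC content and length). mt-Nd4l and mt-Atp8 were at 0 counts in the macrophage-labelled libraries and under 0.1 CPM in eWAT. The nuclear long non-coding RNAs Neat1 (-2.77 ± 0.18), Meg3 (-1.40 ± 0.29) and Malat1 (-1.01 ± 0.10) were all 3 lower (median -1.40). With the offset for GC content and length Neat1 was at -1.77 and Meg3 was no longer called (-0.55, adjusted p = 0.12). Cell cycle genes had 8 of 10 higher and none lower (median 2.03), such as Cdc20 (3.32 ± 0.38, or 2.67 with limma-voom), Ccna2 (2.11 ± 0.39) and the replication helicase subunit Mcm5 (1.35 ± 0.20). The proliferation marker Mki67 (-0.62 ± 0.38) and Top2a (0.72 ± 0.34) were not called. The summed cell cycle level was 35.4 to 73.7 CPM in eWAT, and of the macrophage-labelled libraries replicates 4 and 6 (70.7 and 42.2 CPM) lay within that range and replicate 5 just above it (76.4 CPM).

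Outside the lists, the 5 largest rises were in Arc (7.42 ± 0.17), itself an immediate early gene of neurons, Gdf15, a stress-induced hormone (6.66 ± 0.32), Ier5l (6.49 ± 0.39), Socs1, a cytokine feedback inhibitor (6.28 ± 0.20), and Ccn1, a secreted immediate early product (6.19 ± 0.22). With the offset for GC content and length Arc was at 6.63, Gdf15 at 5.75, Ier5l at 5.20 and Socs1 at 5.51. Ccn1 was at 2660 to 3653 CPM against 32.1 to 77.0 CPM in eWAT. Among the 5 largest falls were Tmem179 (-9.73 ± 0.22), Bc1, a short non-coding RNA (-9.73 ± 0.35), Tenm4 (-9.03 ± 0.19) and Trhde, a peptidase gene (-7.89 ± 0.31). The eWAT counts of Tmem179 lay almost all on the strand opposite to the gene, and its change was -1.94 with the strand column and -10.46 with the offset, where Tenm4 was at -8.36. Txnip, the gene of the knockout label, was at 1489 ± 192 CPM against 1139 ± 117 CPM (0.39 ± 0.10), but at -0.26 (adjusted p = 0.022) with the eWAT strand column, which held 1.59 times its unstranded counts. The macrophage-labelled libraries kept their unstranded counts in that setting, so the tissues were counted unlike there. The direction for Txnip therefore depends on the eWAT column, and only the unstranded setting counted both tissues alike. Of 294 list genes and other named genes with at least 1 CPM in eWAT, 9 moved by more than 1.5 times in eWAT between these columns.

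Among the 6 macrophage-labelled libraries the marker sums were uneven for some lists and even for others. Sort markers summed to 26.4, 14.7, 17.6, 84.0, 33.6 and 42.8 CPM in replicates 1 to 6. Replicate 4 thus held 5.70 times the sum of replicate 2, and was also highest for pan-macrophage genes (1996 CPM, against 766 to 1145 CPM in the others), fibroblast genes (22737 CPM, against 10640 to 20014 CPM) and mast cell genes (298 CPM, against 115 to 191 CPM). Mesothelial genes summed to 405 and 438 CPM in replicates 4 and 6 and to 54.7 to 198 CPM in the others. Cell cycle genes summed to 182, 240 and 157 CPM in replicates 1, 2 and 3 and to 70.7, 76.4 and 42.2 CPM in replicates 4, 5 and 6. Endothelial genes varied far less (12449 to 15432 CPM), as did immediate early genes (48674 to 56538 CPM). Replicate 2 had the most unmapped reads and the lowest Kdr, Tek and Kit. The part of these differences in the tests was not tested beyond leaving out each library.

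**Figure D4:**
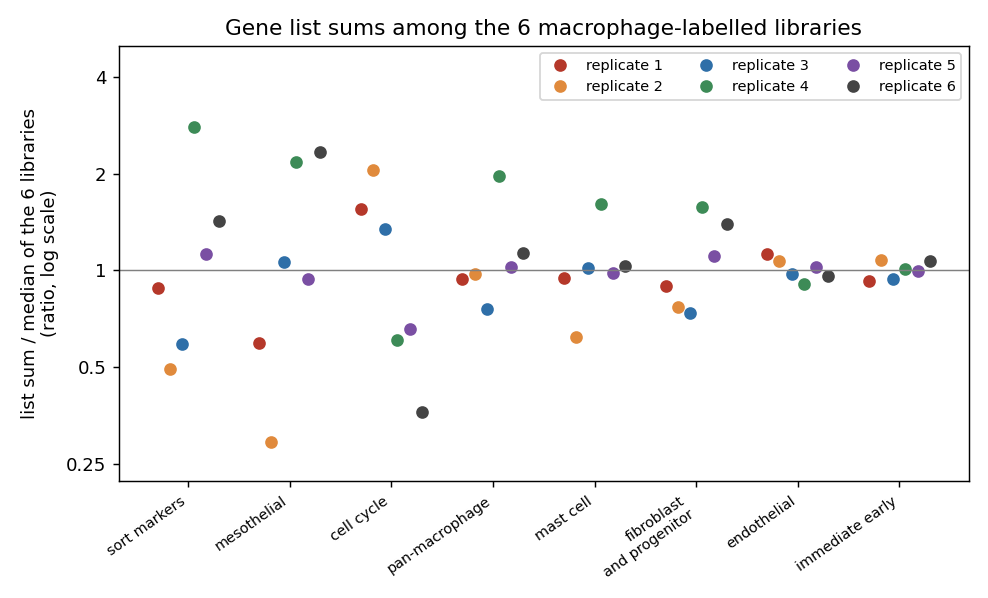
Summed CPM of 8 gene lists in each macrophage-labelled wild-type control-diet library (coloured by replicate), divided by the median of the 6 libraries (log axis). Sort marker, mesothelial and cell cycle sums spread widely, with replicate 4 highest for sort markers, while endothelial and immediate early sums stayed close to 1.

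The libraries labelled knockout on the same diet were compared in the same way, with the same difference in kit. There 7633 of 18003 genes were higher (42.4%) and 7781 lower (43.2%), and 2060 (11.4%) and 2657 (14.8%) with a fold of at least 4. Of the genes at least 4-fold higher, 1618 were shared, 86.6% of the wild type list and 78.5% of the knockout-labelled list, and of those lower 2204 were shared, 89.9% and 83% of each. Adgre1 changed by -1.60 ± 0.16, Itgam by -2.16 ± 0.17 and Fcgr1 by -1.97 ± 0.26, beside 2.57 ± 0.08 for Pecam1, 2.94 ± 0.08 for Kdr, 8.11 ± 0.25 for Egr1 and 8.86 ± 0.44 for Fos. Endothelial genes had 17 of 18 higher and 1 lower (Erg, -0.27 ± 0.07), immediate early genes 22 of 22 higher, heat shock genes 7 of 12 higher and 3 lower, pan-macrophage genes 4 of 18 higher and 13 lower, and adipocyte genes 17 of 18 lower. Lipid-associated macrophage genes had 4 higher and 4 lower there, against 3 and 0 in wild type. Whether any member differed between the genotype labels was not tested here. In eWAT, Txnip was at 1914 ± 212 CPM (SD, n = 7) in the libraries labelled knockout and at 1139 ± 117 CPM (n = 7) in those labelled wild type, in unstranded counts normalized within each comparison. That difference was not tested, and the eWAT strand column was not compared between genotype labels.

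The ratio of endothelial to pan-macrophage level per kb separated the tissues in all 48 libraries. It ran from 4.38 to 6.19 in the 6 macrophage-labelled libraries labelled knockout on the control diet, from 7.32 to 8.37 in the 3 of wild type on the ketogenic diet and from 9.50 to 12.5 in the 3 labelled knockout on that diet. In the 23 other eWAT libraries it ran from 0.266 to 0.719. Immediate early genes took 4.58 to 5.60% of gene counts in the other macrophage-labelled groups and at most 0.0979% in the other eWAT groups. The higher endothelial than macrophage level was thus present in each of the 18 libraries with the macrophage label, of which wild-type control-diet replicate 4 had the lowest ratio (2.49).

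**Figure D5:**
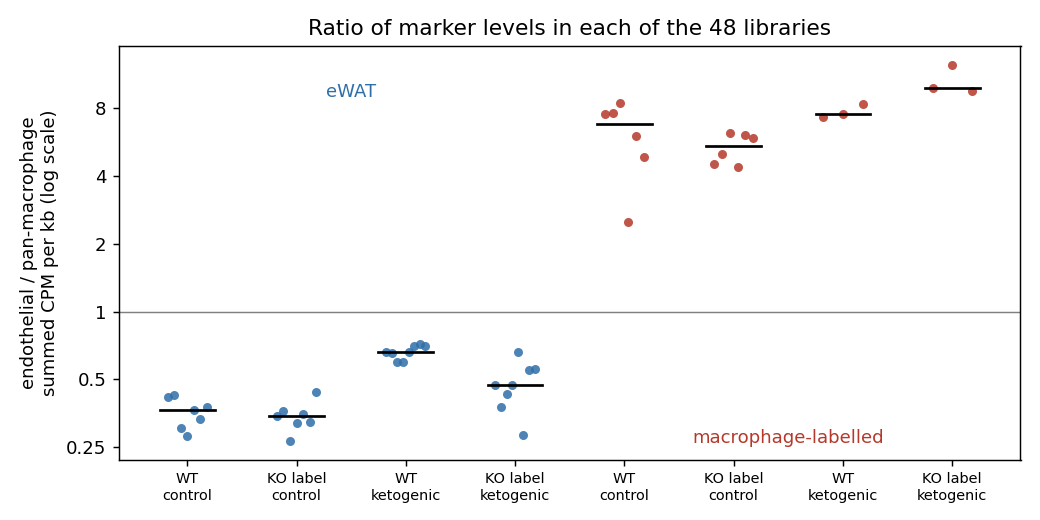
Ratio of the summed endothelial to the summed pan-macrophage level (CPM per kb of exon, log axis) in each of the 48 libraries, by group, with black bars for medians and a grey line at 1. All 30 eWAT libraries lay below 1 (0.266 to 0.719) and all 18 macrophage-labelled libraries above it (2.49 to 12.5).

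The size of the changes also varied with the GC content and length of the genes. Over quintiles of GC content the median log2 fold change ran from -0.29 in the lowest through -0.22, -0.10 and 0.12 to 0.58 in the highest. Over quintiles of exon length it was 0.04, 0.15, 0.20, 0.00 and -0.35. These are medians over all genes and set no limit on the shift of a given gene or list. With the offset for GC content and length, 7 of the 18 endothelial members moved in fold by more than 1.5 times. So did 7 of the 22 immediate early members, and no call in either list ended. The part of the library kit in the list results was not tested.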

How the data were processed

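Raw read counts per gene were deposited by the authors, 1 file per library, made per the submitters' processing notes with STAR 2.7.8a, after Trim Galore 0.6.0, and with the mm10 genome. Which annotation release they used is not stated there. These counts are not normalized. Each file holds an unstranded and 2 stranded columns, and the unstranded one was used for both tissues, since the low-input kit marks no strand. Without strand, reads of overlapping and antisense genes cannot be told apart. Rows that name no gene (unmapped, multimapping, no feature, ambiguous) held 23.4 to 32.9% of reads in the macrophage-labelled and 21.6 to 23.0% in the eWAT libraries and were left out. Of 55471 genes, 55144 were given a symbol; positions are from the GENCODE vM21 annotation of GRCm38.

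Groups follow the labels. In R 4.3.3 with edgeR 4.0.16, filterByExpr, TMM factors and a robust quasi-likelihood fit over the libraries compared gave two-sided p-values, adjusted by Benjamini-Hochberg over all genes tested and called under 0.05. The SE is the absolute log2 fold change divided by the square root of F. Alternatives were other scalings, DESeq2 1.42.0, limma-voom (limma 3.58.1), no low-count filter, the eWAT strand column with the larger total (95.8 to 96.2% of stranded counts), all 8 groups, a replicate block, an offset for GC content and length, and leaving out each library. Where the eWAT strand column was used, the macrophage-labelled libraries kept their unstranded counts, so the tissues were counted unlike. No replicates were copies of each other.

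Libraries were grouped by label, but the comparison, the 32 gene lists (326 genes) and the rules were chosen with earlier results of these data known. Named are all sort marker, endothelial, immediate early and heat shock genes, up to 3 called members of each other list with the highest level per kb, members at 0 counts, the 5 largest rises and falls outside the lists (mean over the libraries 10 CPM or more), and Txnip. Other members were named after their values were seen, as exceptions or to show both directions within a list. Some genes that the rule or a count covers are not reported here. On simulated counts for the wild type comparison (17663 genes, 200 changed) the test called 47.8% of those moved 1.5-fold, 74.6% of those moved 2-fold and 100% of those moved 4-fold, and made 10 wrong calls. No other simulated gene differed, whereas 41.1% of genes were called higher and 41.1% lower in the data. The simulated rates therefore need not hold for the real comparison.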

Additional observations from a re-analysis of the deposited data

Results flagged for a closer look

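Of 333 groups of gene levels and list sums examined, 27 held 1 library far from the rest by Dixon's criterion, where chance gives about 1 in 20. The values below are CPM.

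Macrophage-labelled replicate 2 was apart for 10 genes. It was lowest for Kit (73.2, others from 116), Kdr (1088, others from 1755), Tek (315, others from 511), Cd36 (5305, others from 6747) and Scd1 (133, others from 266). It was highest for Jun (4492, others up to 3447), Junb (7535, others up to 5410), Nfkbia (799, others up to 593), Irf7 (84.2, others up to 66.3) and Meg3 (26.3, others up to 10.2). It was also the library with the most unmapped reads (17.1%).

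Macrophage-labelled replicate 3 was highest for the adipocyte sum (3264, others up to 2558), mt-Co1 (986, others up to 610) and Malat1 (410.5, others up to 328). Replicate 4 was highest for Tpsb2 (58.7, others up to 17.2), and replicate 1 lowest for Mgl2 (8.48, others from 12.5).

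In eWAT, replicate 1 was highest for Sox17 (24.4) and Sox18 (46.7), replicate 2 lowest for the mesothelial sum (175) and Upk3b (53.5), and replicate 3 highest for the unfolded protein and integrated stress sum (1282) and Ccn1 (77.0). Replicate 4 was highest for Fcgr1 (16.6, others up to 5.83) and Trem2 (25.5) and lowest for Nr4a2 (2.68) and mt-Co1 (15602). Replicate 6 was highest for Pdgfrb (82.7) and replicate 7 for Klf6 (304).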

How the results depend on the processing

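Leaving out 1 library kept all 8 counts of called genes and all 9 counts of called list members examined within the range that counted as unchanged. The 31 list medians were labelled unchanged too, but some shifted. Lymphatic endothelial genes ran from -1.97 to -1.05 and lipid-associated macrophage genes from 0.14 to 0.63. B cell genes (-0.14 to 0.31) and NK cell genes (-0.26 to 0.0014) changed sign. Under the other settings these counts and medians were labelled unchanged except as follows. Without the low-count filter the counts at 4-fold grew to 3439 higher and 4978 lower in wild type and to 3627 and 5333 in the libraries labelled knockout, with more genes tested. With the offset for GC content and length the medians of dendritic cell, mitochondrially encoded and nuclear long non-coding RNA genes were -1.30, -4.25 and -0.67. Replicate numbers did not pair the libraries (correlations of same-numbered libraries from -0.03 to 0.11 in wild type), and the replicate block gave 7048 higher and 7153 lower genes in wild type and 7576 and 7667 in the libraries labelled knockout. It ended the calls of Cd36, Gsn, Mmrn1, Klra8, S100a9 and Reln (adjusted p from 0.055 for Klra8 to 0.15 for Cd36) and no other among the named genes examined under these settings.

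Directions turned, without any call, for Erg (-0.025 with DESeq2 size factors and with the DESeq2 Wald test, -0.024 without the low-count filter, -0.030 with upper quartile factors, -0.069 with the offset, -0.049 to 0.078 over libraries left out), for Hsph1 (0.059 by library size only, 0.012 with limma-voom, 0.17 with the offset, -0.297 to 0.085 over libraries left out) and for Hsp90ab1 (-0.0026 with DESeq2 size factors and the Wald test, -0.0082 with upper quartile factors, -0.033 with limma-voom, -0.032 with the offset, -0.0035 without the filter). Trem2 ranged from -0.598 to 0.078 over libraries left out. Txnip turned to -0.26 with the eWAT strand column. The cause of these changes was not tested. On the log2 scale, library size only moved the median of all genes by 0.11 in wild type and 0.11 in the libraries labelled knockout, and upper quartile factors moved it by -0.10 in the latter. Depth limits members near 0 counts, where 3 counts equal 0.0635 to 0.0812 CPM.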
